A study of Homo sapiens with 12 samples.

Results

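The genes described here are 10 immediate early genes of the AP-1 and EGR families, FOS, FOSB, FOSL1, FOSL2, JUN, JUNB, JUND, EGR1, EGR3 and IER3. They were taken by name from a table of 27130 genes. The counts came from poly(A) RNA of H1 (WA01), a long-established human embryonic stem cell line that self-renews in culture and can form cells of every germ layer. The 12 libraries fell into 4 groups of 3, namely wild type cells, ZNF263 knockout cells (homozygous), homozygous knockout cells that also overexpressed ZIC2, and cells labelled as overexpressing ZNF263, with no edit named. ZNF263 and ZIC2 are zinc finger transcription factors, and the stated question of the study was how ZNF263 acts on the pluripotent state, ZIC2 being taken as its cofactor. The tag vec appears in the library names of wild type and of knockout, and not in those of the other groups. Neither the promoters that drove overexpression, nor whether the knockout was 1 clone, nor whether replicate libraries stem from separate cultures is given in the sources used here, so p-values measure only the spread between these libraries, which may be technical.

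Immediate early genes are transcribed within minutes of a stimulus, without new protein synthesis, when kinases such as ERK and JNK act on factors already bound at their promoters. AP-1 is a dimer of a JUN protein with a FOS or another JUN protein that binds the sequence TGANTCA and related sites, and JUN itself is a known AP-1 target. EGR proteins are zinc finger factors that bind GC-rich sites, and EGR1 is switched on through serum response factor, SRF, which binds the CArG box. In human embryonic stem cells the FGF and ERK pathway is active in culture and supports self-renewal.

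Library totals ran from 17175183 to 21804410 counts, apart from knockout replicate 1 with 43464609 counts. ZNF263 stood at 38.2 to 40.7 CPM (counts relative to the scaled library total) in wild type, 30.9 to 31.2 CPM in knockout, 30.1 to 35.9 CPM in knockout with ZIC2 and 219 to 251 CPM under its overexpression, so most of its transcript was still counted in the knockout. ZIC2 stood at a mean of 208.5 CPM in wild type, 156 CPM in knockout, 2040 CPM in knockout with ZIC2 and 212 CPM under ZNF263 overexpression. The level with added ZIC2 was thus far above that of wild type. All 10 pluripotency markers examined, POU5F1, SOX2 and NANOG among them, were present in each group, with a summed level of 8220 to 8760 CPM. Of these, 5 were called higher and 2 lower in knockout against wild type, beside 20% and 18.5% of all tested genes. With ZIC2 against knockout 0 were higher and 3 lower, beside 4.99% and 3.35%. Markers of other cell types also differed between groups. The summed level of 10 fibroblast and mesenchyme markers, 5 of which reached 1 CPM in each group, was 505 to 517 CPM in wild type, 554 to 600 in knockout, 635 to 686 in knockout with ZIC2 and 507 to 520 under ZNF263 overexpression, while DCN was at 0 in all wild type and all overexpression libraries and LUM in all libraries of overexpression and of knockout with ZIC2. The summed level of 6 neuroectoderm markers was 348 to 364, 445 to 490, 463 to 517 and 346 to 352 CPM in the same order. Of these, 2 reached 1 CPM in wild type and 3 in each other group. In knockout against wild type 2 of 5 tested were called higher and 2 lower, beside 20% and 18.5% of all tested genes. With ZIC2 against wild type 1 was higher and 1 lower, beside 20.3% and 17.3%. The 6 endoderm markers, 2 of which reached 1 CPM in each group, summed to 9.49 to 11.1 CPM in wild type, 13.4 to 16.7 in knockout, 13.0 to 14.0 in knockout with ZIC2 and 8.08 to 8.54 under overexpression, with SOX17 at 0 in all wild type libraries. As for JUN, the libraries of knockout cells were above wild type and those of overexpression below it. The 6 mesoderm markers summed to 2.6 to 2.95, 3.31 to 4.0, 3.29 to 5.02 and 2.22 to 3.68 CPM in the order of the groups above, with HAND1 at 0 in all wild type libraries. In knockout against wild type 4 of 6 tested fibroblast and mesenchyme markers were called higher, as were 1 of 2 endoderm and 1 of 3 mesoderm markers. In each of these sets 0 were lower, beside the 20% and 18.5% of all tested genes given above. The part of these marker levels in the results on JUN, JUND, FOSL1, FOSL2 and EGR1 was not tested. In bulk RNA, fewer cells that express a gene and less RNA per cell cannot be told apart.

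Of the 10 genes, 8 passed the filter on low counts and were among the 15437 genes tested. EGR3 and IER3 did not pass. On a scale of CPM per kilobase of exon, which allows genes to be compared, JUND was the most abundant member in each group. In wild type its level was 24.4 ± 0.48 (SD, n = 3), followed by JUN at 7.002 ± 0.305, FOS at 5.96 ± 0.382, FOSL1 at 3.15 ± 0.313, EGR1 at 2.67 ± 0.27, JUNB at 1.61 ± 0.37, FOSL2 at 1.36 ± 0.224, FOSB at 0.156 ± 0.0371 and EGR3 at 0.0156 ± 0.0137. Neighbours in this order did not overlap between libraries, except FOSL1 with EGR1 and JUNB with FOSL2. The order moved with the group: EGR1 was the fourth in knockout with ZIC2, at 5.25 ± 0.635, and under ZNF263 overexpression the libraries of FOS (6.11 ± 0.355) and JUN (5.50 ± 0.379) overlapped. FOSB and EGR3 were the lowest of the 9 members with counts in each group.

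**Figure D1:**
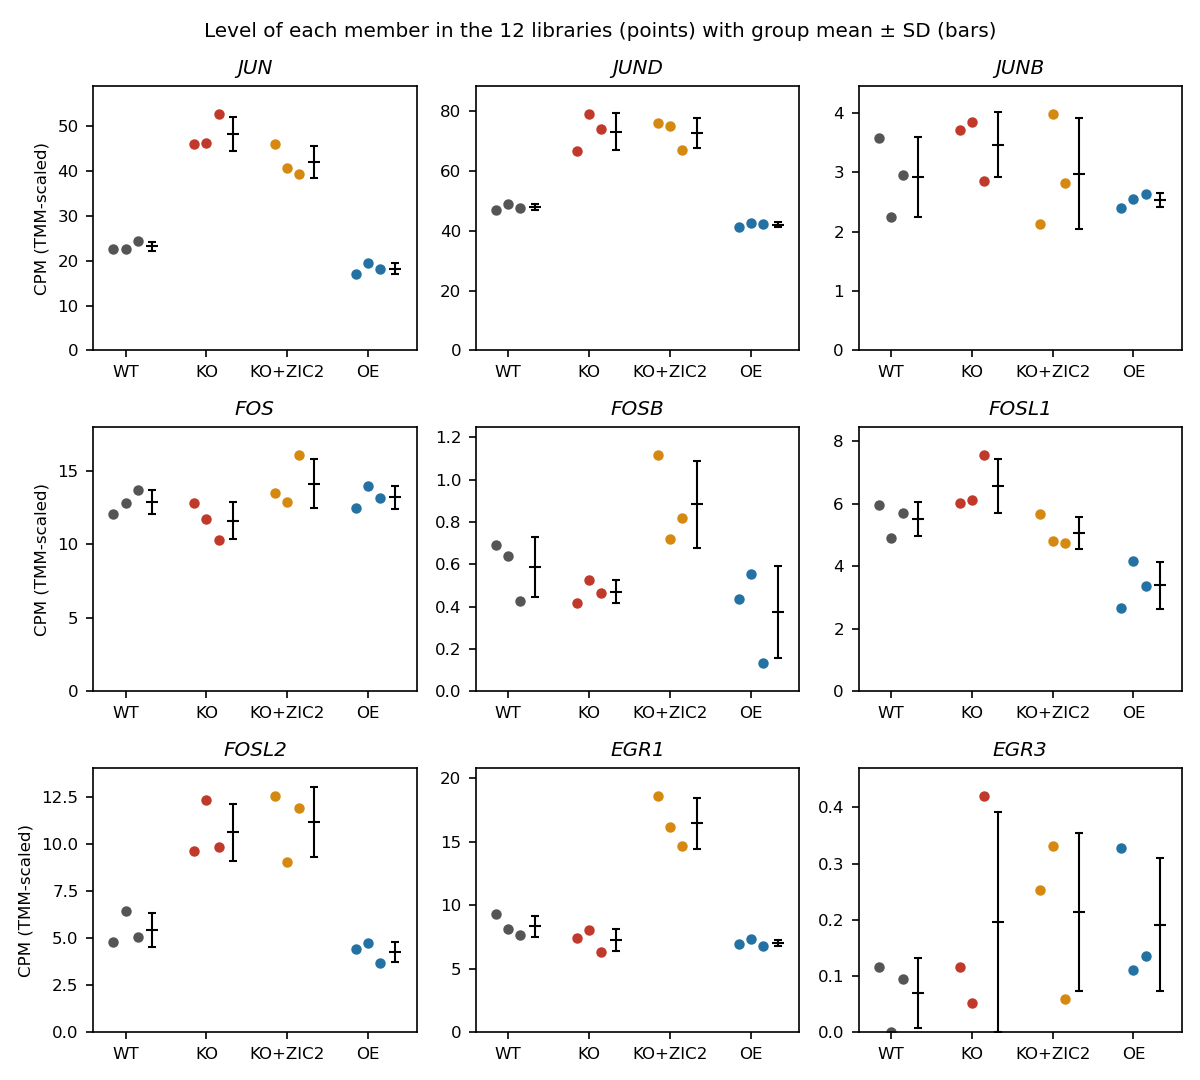
TMM-scaled CPM of 9 members in the 12 libraries (points, replicate 1 to 3 from left to right), with the mean and SD of each group of 3 (bars), one vertical scale a gene starting at 0. JUN, JUND and FOSL2 are high in both groups of knockout cells, EGR1 is high in knockout with ZIC2 (14.6 to 18.6 CPM), and IER3, at 0 in each library, is not drawn.

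The JUN genes code for the partners without which FOS proteins cannot form AP-1. JUN (chromosome 1, 59246463 to 59249785, minus strand, hg19) was at 22.65, 22.7 and 24.4 CPM in wild type replicates 1 to 3, at 46.1, 46.3 and 52.7 CPM in knockout, at 46.05, 40.8 and 39.4 CPM in knockout with ZIC2, and at 17.1, 19.6 and 18.1 CPM under ZNF263 overexpression. The wild type libraries lay above all 3 overexpression libraries and below all 6 libraries of knockout cells. In knockout against wild type JUN rose 2.07-fold, or by 1.05 on the log2 scale (SE 0.07, 95% interval 0.91 to 1.19, adjusted p = 6.44e-11 by the quasi-likelihood test of edgeR over all tested genes, as for each adjusted p here). The entry overlaps the microRNA entry MIR5096, which held 3 counts in all libraries together against 8703 for JUN.

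JUND codes for the JUN protein that is abundant in resting cells and is often grouped apart from the inducible JUN and JUNB. It lies on chromosome 19 (18390504 to 18392466, minus strand). Its level was 47.0, 48.9 and 47.8 CPM in wild type, 66.7, 79.0 and 74.0 CPM in knockout, 75.99, 75.2 and 66.9 CPM in knockout with ZIC2 and 41.2, 42.7 and 42.3 CPM under overexpression. The groups of knockout cells again stood wholly above wild type, and the overexpression libraries wholly below. In knockout the rise was 1.52-fold (log2 fold change 0.60, SE 0.06, adjusted p = 3.78e-08). JUND is the most GC-rich member, with a GC content of 69.7%, and log2 fold changes in this comparison rose with GC content over all tested genes (Spearman correlation 0.427 over 14585 genes, with a median log2 fold change of 0.172 in genes of at least 59.1% GC). Corrected for GC content and gene length, the log2 fold change of JUND was 0.39 (SE 0.05, adjusted p = 4.08e-08), still called but smaller by over 1.5 times. JUN, with a GC content of 56.7%, had 0.99 after the same correction.

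JUNB, the third JUN gene (chromosome 19, 12902310 to 12904125, plus strand), was low, at 3.58, 2.24 and 2.95 CPM in wild type, 3.70, 3.85 and 2.84 CPM in knockout, 2.13, 3.97 and 2.81 CPM in knockout with ZIC2 and 2.40, 2.55 and 2.63 CPM under overexpression. Its libraries overlapped between wild type and every other group. The log2 fold change in knockout was 0.26 (95% interval -0.13 to 0.65, adjusted p = 0.288), an interval that takes in a rise of the size seen in JUND but not one of the size seen in JUN. JUNB has a GC content of 64.9%, and after the GC and length correction its value was 0.08 (SE 0.18, adjusted p = 0.78). In the deposited entries of JUN, JUNB and JUND the exon length equals the span of the gene, that is, none has an intron.

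Among the FOS genes, FOSL2 was the one that rose in knockout. FOSL2 codes for FRA2, a FOS protein without the strong transactivation domain of FOS (chromosome 2, 28615779 to 28637516, plus strand). It was at 4.80, 6.45 and 5.05 CPM in wild type, 9.62, 12.3 and 9.84 CPM in knockout, 12.5, 9.05 and 11.9 CPM in knockout with ZIC2 and 4.42, 4.71 and 3.68 CPM under overexpression. The lowest library of knockout cells was above the highest of the other groups. The rise in knockout was 1.92-fold (log2 fold change 0.94, SE 0.14, adjusted p = 1.08e-05), and 0.88 after the GC and length correction.

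FOS, the prototype of the family (chromosome 14, 75745481 to 75748937, plus strand), was not called in this comparison. Its level was 12.1, 12.8 and 13.7 CPM in wild type, 12.8, 11.7 and 10.3 CPM in knockout, 13.5, 12.9 and 16.1 CPM in knockout with ZIC2 and 12.4, 14.0 and 13.2 CPM under overexpression. All groups overlapped with wild type. The log2 fold change in knockout was -0.13 (95% interval -0.33 to 0.06, adjusted p = 0.282). It was called lower after the GC and length correction, at -0.26 (SE 0.09, adjusted p = 0.0349).

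FOSL1 codes for FRA1, a FOS protein whose gene is itself a known AP-1 target (chromosome 11, 65659607 to 65667997, minus strand). It was at 5.95, 4.91 and 5.72 CPM in wild type, 6.03, 6.11 and 7.55 CPM in knockout, 5.67, 4.80 and 4.74 CPM in knockout with ZIC2 and 2.67, 4.16 and 3.36 CPM under overexpression. Each knockout library was above each wild type library, yet by little, and the difference was not called (log2 fold change 0.23, SE 0.13, adjusted p = 0.166). After the GC and length correction it was 0.08 (SE 0.125, adjusted p = 0.68). The overexpression libraries lay below those of every other group.

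FOSB, a FOS gene strongly induced by stimuli in neurons (chromosome 19, 45971253 to 45978437, plus strand), was near the limit of this depth. It had 12, 12 and 9 counts in wild type, 18, 10 and 10 in knockout, 22, 13 and 14 in knockout with ZIC2 and 8, 10 and 3 under overexpression. The ratio of pooled counts after scaling was 0.788 for knockout to wild type, with an exact 95% interval of 0.481 to 1.30 that covers counting error only. The upper bound lies below the 2.07-fold rise of JUN.

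Over the 8 tested members, 3 were called higher in knockout than in wild type (JUN, JUND and FOSL2) and 0 lower, where 20% of all tested genes were called higher and 18.5% lower. The members' median log2 fold change was 0.25, beside -0.01 over all tested genes and 0.172 in genes of at least 59.1% GC. The GC content of the tested members ran from 55.4% (EGR1) to 69.7% (JUND). After the GC and length correction their values were lower, at 0.99 for JUN, 0.88 for FOSL2 and 0.39 for JUND. JUNB and FOSL1 then had 0.08 each, EGR1 -0.24, FOS -0.26 and FOSB -0.40. Libraries of these groups did not overlap for 4 members, FOSL1 being the fourth, beside 46.7% of all tested genes. An unadjusted p under 0.05 was found for 3 members and for 46.2% of all tested genes. The share of members called in either direction was close to that of all tested genes, so nothing particular to the members is read from the count.

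**Figure D2:**
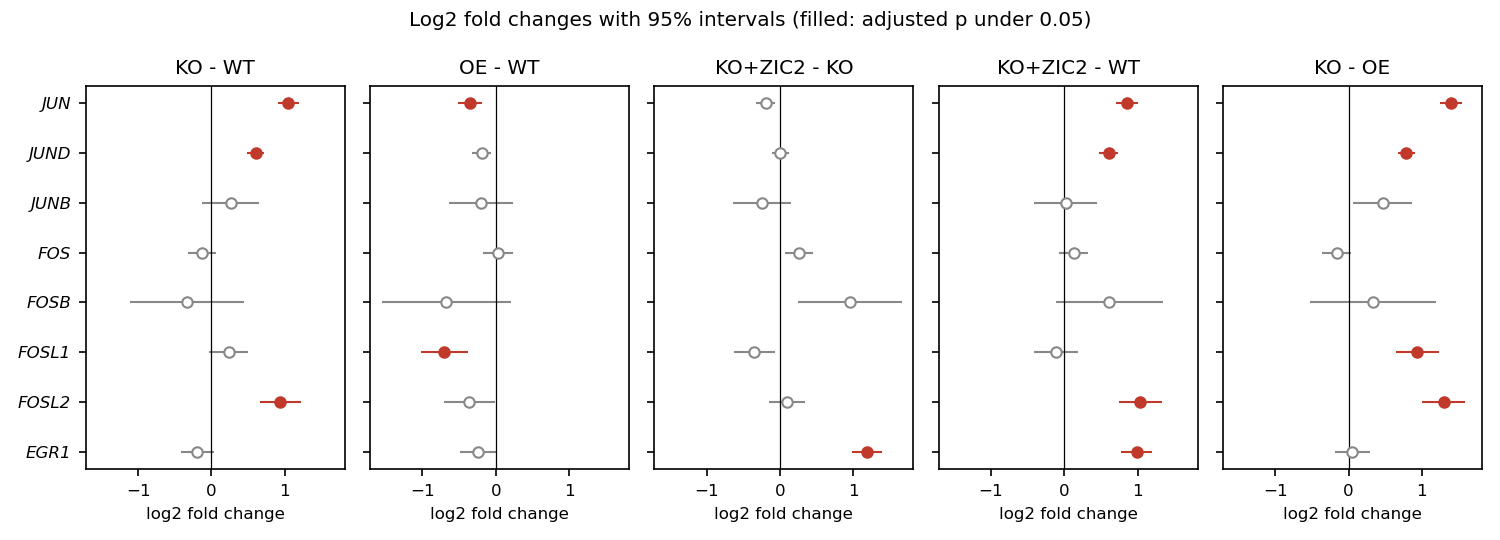
Log2 fold changes of the 8 tested members in the 5 comparisons, with 95% intervals (lines); filled points have an adjusted p under 0.05 in edgeR. JUN, JUND and FOSL2 are to the right of 0 wherever a group of knockout cells is set against wild type or overexpression, and EGR1 wherever knockout with ZIC2 is the first group.

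To show the proximal promoters of the members that moved together, the RefSeq sequence from 250 bases before to 50 bases after the annotated start (GRCh38.p14, gene strand) is printed for JUN (chr1:58783998-58784297, minus strand), JUND (chr19:18281573-18281872, minus strand) and FOSL2 (chr2:28392608-28392907, plus strand), and for FOS (chr14:75278578-75278877, plus strand), which was not called with them. Capitals mark matches, on either strand, to the AP-1 motif TGANTCA and to TGANNTCA, the form that also takes in the CRE sequence TGACGTCA.
JUN: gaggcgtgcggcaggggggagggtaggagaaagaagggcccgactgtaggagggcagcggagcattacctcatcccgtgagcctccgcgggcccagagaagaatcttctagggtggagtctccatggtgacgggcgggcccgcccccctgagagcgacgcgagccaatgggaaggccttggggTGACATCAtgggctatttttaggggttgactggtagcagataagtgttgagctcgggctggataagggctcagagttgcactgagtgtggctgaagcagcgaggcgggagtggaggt
JUND: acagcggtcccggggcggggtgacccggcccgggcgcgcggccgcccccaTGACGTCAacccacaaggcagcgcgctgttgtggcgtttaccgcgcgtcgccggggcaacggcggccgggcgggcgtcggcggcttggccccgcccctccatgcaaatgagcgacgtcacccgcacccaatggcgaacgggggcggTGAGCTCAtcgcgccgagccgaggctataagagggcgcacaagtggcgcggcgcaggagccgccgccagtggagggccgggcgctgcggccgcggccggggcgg
FOSL2: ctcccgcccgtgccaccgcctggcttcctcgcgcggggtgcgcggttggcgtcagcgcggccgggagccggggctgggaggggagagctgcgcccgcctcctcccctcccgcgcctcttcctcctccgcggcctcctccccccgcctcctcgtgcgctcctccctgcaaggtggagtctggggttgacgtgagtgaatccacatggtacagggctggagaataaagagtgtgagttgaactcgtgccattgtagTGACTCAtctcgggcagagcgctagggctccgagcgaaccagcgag
FOS: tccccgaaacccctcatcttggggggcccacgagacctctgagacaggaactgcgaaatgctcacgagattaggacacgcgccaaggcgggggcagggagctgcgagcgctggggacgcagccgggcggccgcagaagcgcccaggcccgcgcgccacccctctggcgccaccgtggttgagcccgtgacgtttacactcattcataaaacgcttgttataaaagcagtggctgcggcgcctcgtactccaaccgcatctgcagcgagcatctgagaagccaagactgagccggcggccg
JUN holds TGACATCA at -67 to -60 from its start. JUND holds TGACGTCA at -200 to -193 and TGAGCTCA at -54 to -47. FOSL2 holds TGACTCA at 5 to 11 after its start, and FOS has no match in this window. Of 34943 RefSeq promoters of the same 300 bases, 7.7% held TGANTCA, 11.5% TGANNTCA and 1.8% TGACGTCA, the last being contained in the one before it. GGAGGA, a part of the G-rich motif known for ZNF263, occurred 5 times in FOSL2 on both strands together with overlaps counted, 1 time each in JUNB and EGR1, and not in JUN, JUND, FOS or FOSB, beside 36.6% of all promoters with at least 1 copy. These letter matches are a description and not binding sites. Promoters of 7 of the 10 members were matched by symbol.

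Under overexpression of ZNF263, JUN and FOSL1 were lower than in wild type. JUN fell by 0.35 on the log2 scale (SE 0.08, 95% interval -0.52 to -0.19, adjusted p = 0.0331) and FOSL1 fell by 0.70 (SE 0.15, 95% interval -1.02 to -0.38, adjusted p = 0.0281). With these, 2 of 8 members were called lower and 0 higher, where 0.447% of all tested genes were called lower and 0.317% higher. The members' median log2 fold change was -0.30, beside 0 over all tested genes. The libraries of 5 members did not overlap with wild type, FOSL2, JUND and EGR1 in addition to the called genes, each with the overexpression libraries lower, and the same 5 had an unadjusted p under 0.05. Over all tested genes 19.4% did not overlap and 10.6% had such a p. The log2 value of JUND was -0.19 (SE 0.06, adjusted p = 0.222), FOSL2 -0.36 (SE 0.17, adjusted p = 0.445) and EGR1 -0.24 (SE 0.12, adjusted p = 0.472). FOS had 0.03 (95% interval -0.17 to 0.23, adjusted p = 0.948).

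Both calls were lost under several omissions of 1 library. JUN was no longer called without wild type replicate 1 (adjusted p = 0.0646), 2 (0.0805) or 3 (0.166), nor without overexpression replicate 1 (0.175), 2 (0.0546) or 3 (0.159), with log2 fold changes of -0.40 to -0.31. FOSL1 was no longer called without wild type replicate 1 (adjusted p = 0.119) or 3 (0.123) or overexpression replicate 1 (0.172) or 3 (0.147), with log2 fold changes of -0.86 to -0.57 over all 6 omissions. JUND was called lower when only wild type and overexpression libraries were fitted (-0.19, adjusted p = 0.0167) and after the GC and length correction (-0.26, adjusted p = 0.00275).

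The comparisons of knockout and of overexpression with wild type share the 3 wild type libraries. Set against each other directly, knockout exceeded overexpression in 4 of 8 members and was below it in 0, where 19% of tested genes were called higher and 17.5% lower. JUN differed 2.64-fold (log2 difference 1.40, SE 0.07, adjusted p = 4.28e-13), FOSL2 2.46-fold (1.30, SE 0.14, adjusted p = 1.91e-07), FOSL1 1.91-fold (0.94, SE 0.14, adjusted p = 1.96e-05) and JUND 1.73-fold (0.79, SE 0.06, adjusted p = 4.36e-10). Log2 differences also rose with GC content between these groups (Spearman correlation 0.315 over 14585 genes), and the value of the GC-rich JUND is given uncorrected. This comparison is the test of the difference between the knockout and the overexpression effect, and the groups labelled knockout and overexpression differed in these genes. JUNB was higher in knockout in each library (0.46, SE 0.19, adjusted p = 0.063) and was called when only these groups were fitted (adjusted p = 0.0324), with no filter on low counts (0.0235), and without knockout replicate 3 (0.0344). FOS had a log2 difference of -0.16 (adjusted p = 0.177), called after the GC and length correction (-0.25, adjusted p = 0.0355) and without knockout replicate 1 (-0.27, adjusted p = 0.0433). EGR1 had 0.05 (95% interval -0.18 to 0.29). The libraries did not overlap for the 4 called members and JUNB, beside 47.3% of all tested genes. The median over the 8 members was 0.63, beside -0.004 over all tested genes and 0.12 in genes of at least 59.1% GC.

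EGR1, often used as a marker of ERK activity, was high in the knockout cells with added ZIC2. The gene lies on chromosome 5 (137801181 to 137805004, plus strand). It stood at 9.30, 8.11 and 7.67 CPM in wild type, 7.43, 8.06 and 6.34 CPM in knockout, 18.6, 16.2 and 14.6 CPM in knockout with ZIC2 and 6.98, 7.32 and 6.81 CPM under ZNF263 overexpression. All libraries with ZIC2 were above all others. EGR1 rose 2.27-fold against knockout (log2 fold change 1.18, SE 0.10, adjusted p = 1.31e-08) and 1.985-fold against wild type (0.99, SE 0.10, adjusted p = 1.29e-07). In knockout alone the log2 fold change was -0.19 (SE 0.11, adjusted p = 0.182), called lower only in the fit with the GC and length correction and the replicate number together (-0.26, adjusted p = 0.0417).

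The promoter of EGR1 is shown because SRF sites are the known route of its induction (chr5:138465229-138465528, plus strand, GRCh38.p14, RefSeq, the same window). Capitals mark the matches to the CArG box.
EGR1: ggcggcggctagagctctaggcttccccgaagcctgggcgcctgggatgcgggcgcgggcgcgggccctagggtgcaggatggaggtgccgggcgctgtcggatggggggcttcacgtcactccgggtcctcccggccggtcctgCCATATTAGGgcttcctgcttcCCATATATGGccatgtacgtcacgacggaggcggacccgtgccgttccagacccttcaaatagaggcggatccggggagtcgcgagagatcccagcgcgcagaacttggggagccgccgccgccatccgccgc
The CArG boxes lie at -105 to -96 and at -83 to -74 from the start. Of the 34943 promoters, 1.3% held a CArG box in this window, and no other member matched did. Sites further than 250 bases before a start were not searched, so a CArG box there would be missed in any member.

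EGR3, a related EGR gene on chromosome 8, had 2, 0 and 2 counts in wild type, 5, 1 and 9 in knockout, 5, 6 and 1 in knockout with ZIC2 and 6, 2 and 3 under ZNF263 overexpression. All groups overlapped. The ratio of pooled counts of knockout with ZIC2 to wild type was 3.12 after scaling, with an exact 95% interval of 0.944 to 13.3, and that to knockout was 1.21 (0.519 to 2.78), so a change was not detectable at this depth. EGR2, named here after its values were seen, was at a mean of 0.823 CPM in wild type, 1.11 in knockout, 1.90 in knockout with ZIC2 and 1.06 under overexpression. Its log2 fold change in knockout with ZIC2 was 1.20 against wild type (adjusted p = 0.00128) and 0.75 against knockout (adjusted p = 0.0504).

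IER3, an early response gene linked to the control of apoptosis, was listed at 0 in all 12 libraries. Its entry differs from those of the other members. The deposited entry of IER3 (chromosome 6, 30710976 to 30712327, minus strand) covers 6 contigs, chromosome 6 and alternative haplotypes of the same region, with a summed length of 7440 bases of which 1240 lie on chromosome 6. The counts were made from uniquely aligned reads, per the file headers, which leaves out reads that fit several places equally well. Of 238 genes listed on chromosome 6 and at least 1 haplotype contig, 117 (49.2%) were at 0 in every library, beside 95 of 1163 (8.17%) listed on chromosome 6 alone. Of the 5 genes on the same 6 contigs as IER3, itself included, 2 (40%) were at 0, so other genes with these copies did have counts. The exons of IER3 also overlap the entries MIR7641-2, with 53 counts in all libraries together, and MIR6891, with 0. The part of the copies and of these overlaps in the zero of IER3 itself was not tested, and the zero is given as a listed value with no level read from it.

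In knockout cells with ZIC2 set against knockout, EGR1 was the 1 member of 8 called higher, and 0 were called lower, where 4.99% of all tested genes were called higher and 3.35% lower. The median log2 fold change over the members was 0.05, beside -0.001 over all tested genes. JUND was the same to 2 decimals (log2 fold change 0.00, 95% interval -0.12 to 0.12, adjusted p = 0.998), and FOSL2 differed by 0.10 (95% interval -0.15 to 0.35, adjusted p = 0.726). For 5 members the libraries did not overlap, beside 21.8% of all tested genes, and 5 had an unadjusted p under 0.05, beside 19.9%.

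JUN was not called, at -0.19 on the log2 scale (SE 0.06, adjusted p = 0.0636). Each library with ZIC2 was below each knockout library, by as little as 46.05 against 46.06 CPM. The call moved with the settings. JUN was called with other size factors (-0.20, adjusted p = 0.0497), with no filter on low counts (-0.20, adjusted p = 0.0114), after the GC and length correction (-0.23, adjusted p = 0.00536), and without knockout replicate 1 (-0.24, adjusted p = 0.027), knockout replicate 2 (-0.21, adjusted p = 0.0227) or replicate 1 with ZIC2 (-0.26, adjusted p = 0.0222). It was not called by DESeq2 (adjusted p = 0.113), with only these groups fitted (0.139), with a minimum of 1 CPM in 3 libraries (0.0643), with the replicate block (0.0798), or without knockout replicate 3 (-0.13, adjusted p = 0.299), replicate 2 with ZIC2 (-0.17, adjusted p = 0.197) or replicate 3 with ZIC2 (-0.15, adjusted p = 0.258). FOSL1 had -0.35 (SE 0.13, adjusted p = 0.12), called after the GC and length correction (-0.38, adjusted p = 0.049), and -0.25 without knockout replicate 3 (adjusted p = 0.364). FOS, at 0.26 (SE 0.09, adjusted p = 0.0923), was called without knockout replicate 1, the deepest library (0.36, adjusted p = 0.0306), and was at 0.19 without knockout replicate 3 (adjusted p = 0.306) and 0.16 without replicate 3 with ZIC2 (adjusted p = 0.413). FOSB had 0.95 (SE 0.34, adjusted p = 0.0961), and its ratio of pooled counts was 1.96 (exact 95% interval 1.25 to 3.07, counting error only).

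Against wild type, knockout with ZIC2 was higher in 4 of 8 members and lower in 0, where 20.3% of tested genes were called higher and 17.3% lower. JUN was 1.81-fold above wild type (0.86 on the log2 scale, SE 0.07, adjusted p = 4.53e-09), JUND 1.52-fold (0.60, SE 0.06, adjusted p = 5.94e-08) and FOSL2 2.05-fold (1.04, SE 0.14, adjusted p = 5.17e-06), and EGR1 was the other gene called. Log2 fold changes rose with GC content here too (Spearman correlation 0.446 over 14585 genes), and the value of the GC-rich JUND is given uncorrected. The median of the members was 0.61, beside 0.004 over all tested genes and 0.173 in genes of at least 59.1% GC. Libraries of 5 members did not overlap, FOSB being the fifth, beside 47.3% of all tested genes. FOS (0.13, 95% interval -0.07 to 0.33) and FOSL1 (-0.12, 95% interval -0.42 to 0.18) were not called.

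The make-up of each family differed between the groups. Per length, the 3 JUN genes summed to 32.7 to 33.3 CPM per kilobase in wild type, 53.7 ± 3.4 (SD, n = 3) in knockout, 51.3 ± 3.4 in knockout with ZIC2 and 28.3 ± 0.80 under overexpression. JUN made up 20.7 to 22.1% of this sum in wild type, 24.7 to 28.8% in knockout, 23.3 to 25.8% in knockout with ZIC2 and 18.8 to 20.3% under overexpression, and JUND most of the rest. The sum for the 4 FOS genes went from 10.6 ± 0.33 in wild type to 11.9 ± 0.23 in knockout, 12.5 ± 1.2 with ZIC2 and 9.22 ± 0.86 under overexpression. Within it FOSL2 made up 11.5 to 15.4% in wild type and 20.3 to 25.5% in knockout, and FOS 53.9 to 57.8% and 40.9 to 49.8%. Under overexpression FOS held 63.6 to 68.0% and FOSL1 17.9 to 23.3%, beside 26.6 to 32.7% for FOSL1 in wild type. Shares within a family are tied to each other, so these ranges describe the mixture and were not tested.

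**Figure D3:**
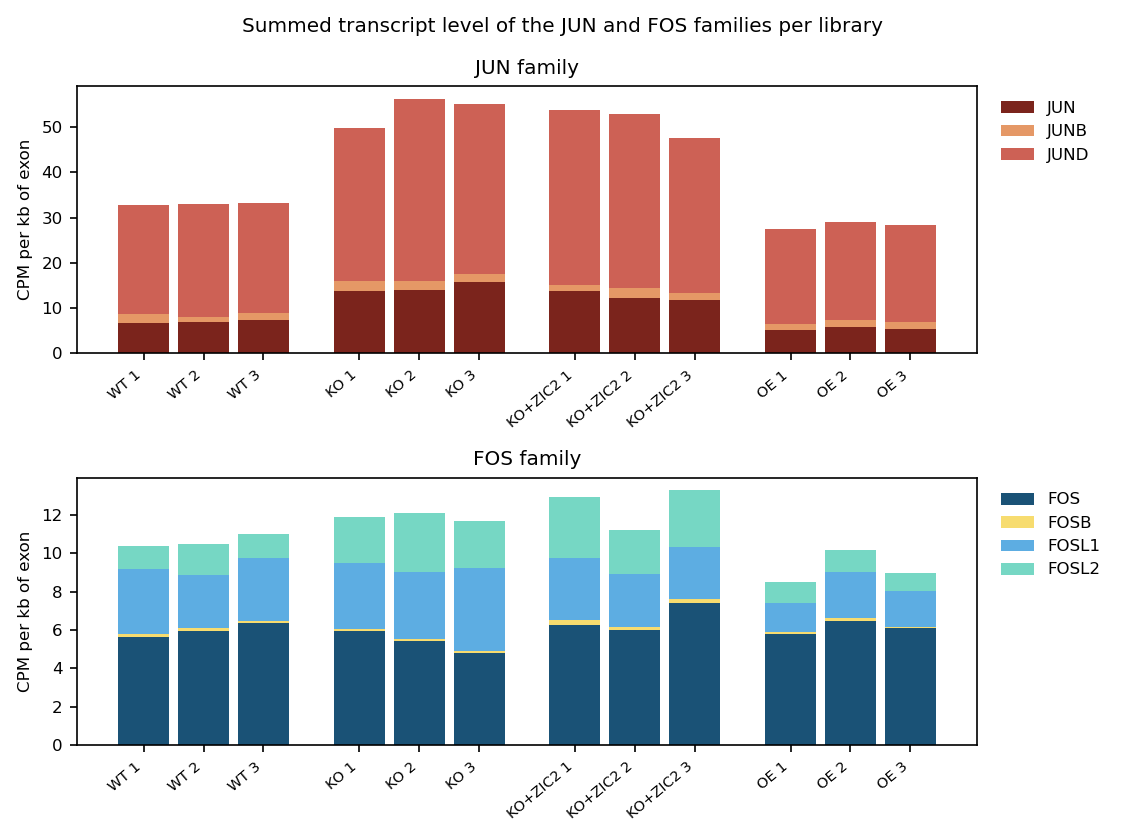
Stacked level of the JUN genes (top) and FOS genes (bottom) in each of the 12 libraries, in CPM per kilobase of exon, with scales starting at 0. The JUN sum, mostly JUND, spans 49.9 to 56.3 in the knockout libraries beside 32.7 to 33.3 in wild type, and the FOSL2 part of the FOS sum is wider in both groups of knockout cells.

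Over the 12 libraries, log2 CPM of JUN correlated with JUND at a Pearson r of 0.98 and with FOSL2 at 0.94, and FOSL2 with JUND at 0.96, while FOS correlated with JUN at -0.22. These values mostly repeat the group differences. When each group's mean was taken away, JUN and FOSL1 still moved together from library to library (r = 0.84 over 12 libraries), JUN and JUND less (0.40), FOSL2 with FOSB at 0.62 and with JUNB at -0.62, and FOS with JUND at -0.55. The points share library depth and scaling, and they are given as a description.

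Among 11033 genes whose mean level reached 5 CPM, those most like JUN over the 12 libraries were ANXA1, an annexin (r = 0.993), the kinase gene PRKD1 (0.992) and TEAD3, a partner of YAP and TAZ (0.991). ANXA1 went from a mean of 4.27 CPM in wild type to 21.1 in knockout, 14.6 in knockout with ZIC2 and 2.41 under overexpression. Most like FOSL1 was TIGAR (r = 0.948), followed by CDC42SE1 (0.892) and PARD6B (0.891). Most like EGR1 were GRM4 (0.966), F13A1 (0.965) and ZIC2 itself (0.962), the overexpressed gene, and most like FOS were DBF4B (0.842), CHTF8 (0.812) and PLXNA3 (0.808). Being the highest of 11033 values over only 12 libraries, these correlations are a description. Those with JUN and EGR1 mostly repeat group differences. DBF4B differed little, with group means of 28.3 to 32.7 CPM. F13A1, a coagulation factor subunit, stood at 2.55 CPM in knockout and 14.6 CPM with ZIC2.

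Other immediate early genes were read beside the members, from a list of 40 that was chosen with earlier results of these data known. Its counts are therefore a description. Of these, 36 were tested, and 21 were called higher and 1 lower (ZFP36L1, -0.12) in knockout against wild type, with a median log2 fold change of 0.27. Over all tested genes, 20% were higher and 18.5% lower, and the median was -0.01. After the GC and length correction the counts were 16 and 4 and the median 0.22. CYR61 and CTGF, matricellular proteins known as targets of YAP, rose on the log2 scale by 1.08 (SE 0.05, adjusted p = 4.96e-14) for CYR61 and by 0.89 (SE 0.05, adjusted p = 9.98e-13) for CTGF, and RHOB, a small GTPase induced by stress and growth factors, by 1.14 (SE 0.07, adjusted p = 3.64e-11). Under overexpression, where 0.317% of all tested genes were higher, 0.447% lower and the median was 0, the list had 0 higher and 4 lower at a median of -0.07. CYR61 fell by 0.37 (SE 0.05, adjusted p = 0.000114), CTGF by 0.29 (SE 0.05, adjusted p = 0.00159), BTG2, an antiproliferative gene, by 0.59 (SE 0.12, adjusted p = 0.0102), and PHLDA1 by 0.21 (adjusted p = 0.0362). Knockout against overexpression gave 22 higher and 3 lower, ARC (-0.34), TRIB1 (-0.14) and ZFP36L1 (-0.14), with a median of 0.29, beside 19% and 17.5% of all tested genes and their median of -0.004.

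With ZIC2 added to the knockout, 6 of the 36 were higher and 5 lower (CTGF, CYR61, TXNIP, ID1 and MYC), with a median of 0.06, beside 4.99% and 3.35% of all tested genes and their median of -0.001. IER5L, a relative of the stress gene IER5, had the largest change, from 0.737 to 5.07 CPM (log2 fold change 2.71, SE 0.22, adjusted p = 1.03e-08). CTGF fell by 0.42 (SE 0.04, adjusted p = 6.55e-07) and CYR61 by 0.38 (SE 0.04, adjusted p = 1.95e-06), but were still above wild type by 0.47 and 0.70. Against wild type 23 were higher and 1 lower (MCL1, -0.08), with a median of 0.27, beside 20.3% and 17.3% of all tested genes and their median of 0.004. After the GC and length correction these counts were 21 and 3.

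**Figure D4:**
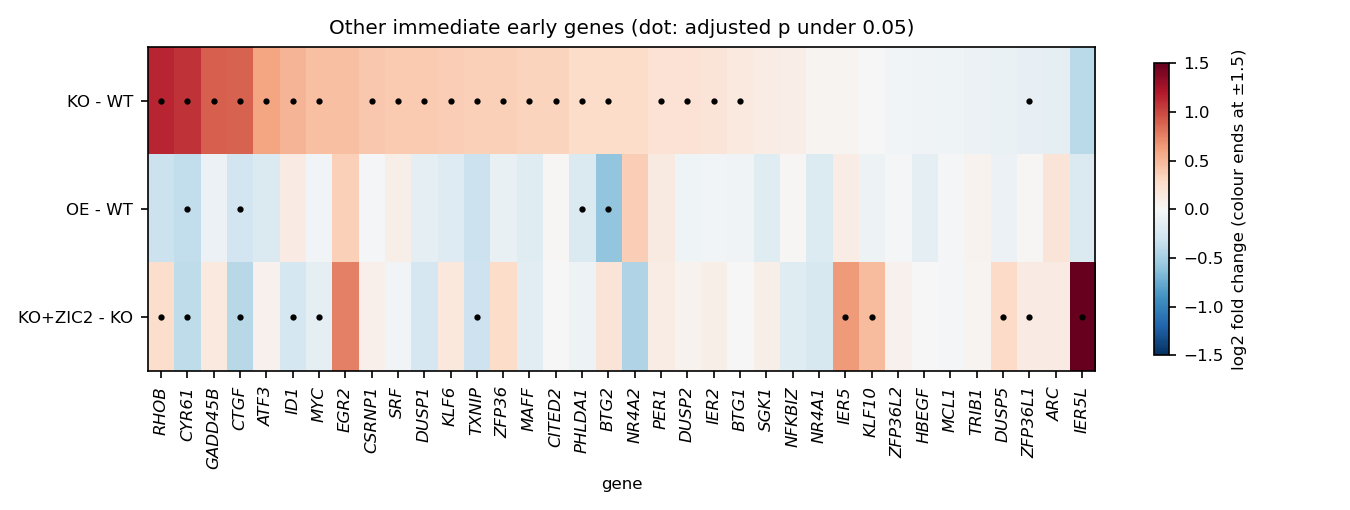
Log2 fold changes (colour) of the 36 other tested immediate early genes in 3 comparisons, ordered by the value in knockout against wild type, with dots where the adjusted p was under 0.05. Red fills most of the first row (21 genes called higher, 1 lower), the second row has 4 called genes, all lower, and in the third row IER5L passes the end of the colour scale.

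Of a list of genes that AP-1 is known to act on, more were higher than lower in knockout. The list was chosen with earlier results of these data known. It also shares DUSP1 and HBEGF with the list of other immediate early genes, so its counts are a description and not separate from those. Of 26 tested in that list, which includes FOSL1 itself, 16 were called higher and 1 lower, with a median log2 fold change of 0.26 (15 and 1, with 0.30, after the GC and length correction), beside 20% and 18.5% of all tested genes and their median of -0.01. ANXA1 rose by 2.26 (SE 0.13, adjusted p = 1.36e-11), while S100A6, a calcium-binding protein, fell by 4.38 (SE 0.28, adjusted p = 4.45e-11), from a mean of 3.36 to 0.150 CPM. Under ZNF263 overexpression FOSL1 was the 1 gene called, lower, and ANXA1 had -0.83 (SE 0.21, adjusted p = 0.0623). Over all tested genes 0.317% were higher and 0.447% lower there. With ZIC2 against knockout 6 were higher and 6 lower at a median of -0.03, beside 4.99% and 3.35% of all tested genes, among them the urokinase receptor PLAUR (0.95, SE 0.11, adjusted p = 2.07e-06), cyclin D1, CCND1 (0.35, SE 0.04, adjusted p = 5.82e-06), and the protease gene MMP9 (-0.70, SE 0.10, adjusted p = 2.12e-05). Against wild type the counts with ZIC2 were 17 higher and 1 lower at a median of 0.26, beside 20.3% and 17.3% of all tested genes. Knockout against overexpression gave 18 and 2 at a median of 0.41, beside 19% and 17.5%. S100A6 was lower in both and PLAUR in the second (-0.36).

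A further list held genes of the ATF, BATF, JDP, MAF and CREB families, as relatives or possible partners of AP-1 proteins. It also held the EGR corepressors NAB1 and NAB2, and genes of the list were called in both directions. Of 19 tested, 6 were higher and 3 lower in knockout, with a median of 0.01, beside 20% and 18.5% of all tested genes, and 4 and 4 after the GC and length correction. Under ZNF263 overexpression 0 were called in either direction, also after that correction. Over all tested genes 0.317% were called higher and 0.447% lower under overexpression. JDP2, a repressor that dimerises with JUN, rose by 0.70 (SE 0.08, adjusted p = 5.44e-07), while NAB1 fell by 0.38 (SE 0.05, adjusted p = 7.19e-06), ATF2 by 0.30 (SE 0.06, adjusted p = 0.000174) and CREB1 by 0.16. With ZIC2 against knockout only ATF5 (0.27, SE 0.06, adjusted p = 0.00378) and MAFK (-0.27, SE 0.08, adjusted p = 0.0455) were called, beside 4.99% of all tested genes higher and 3.35% lower. Against wild type 4 were higher with ZIC2 (ATF5, JDP2, MAFA and MAFG) and 3 lower (NAB1, ATF2 and CREB1), beside 20.3% and 17.3% of all tested genes.

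Upstream, SRF rose in knockout, from a mean of 146 to 192 CPM (log2 fold change 0.39, SE 0.04, adjusted p = 7.75e-08), as did its coactivator genes MYOCD (0.83, SE 0.12, adjusted p = 1.85e-05) and MKL1 (0.33, SE 0.06, adjusted p = 0.000403). Of the 9 tested genes of that list 3 were higher and 2 lower (ELK4 and MKL2) in knockout, beside 20% and 18.5% of all tested genes. After the GC and length correction the counts were 4 and 1, beside 2697 and 1907 of the 15437 tested genes. Under overexpression 0 were called, beside 0.317% higher and 0.447% lower of all tested genes. With ZIC2 against knockout 0 were called, beside 4.99% and 3.35%, and SRF had -0.04 (SE 0.04, adjusted p = 0.648). Of 30 genes of the ERK and JNK cascades, 9 were higher and 8 lower in knockout with a median of -0.02, beside 20% and 18.5% of all tested genes. After the GC and length correction the counts were 6 and 4 and the median 0.025. FGFR4 (0.30, SE 0.04, adjusted p = 1.23e-05) and MAP2K2 (0.30, SE 0.04, adjusted p = 1.5e-05) were higher and RPS6KA3 (-0.49, SE 0.07, adjusted p = 1.82e-05) lower, and FGFR4 moved to 0.18, MAP2K2 to 0.11 and RPS6KA3 to -0.30 after the GC and length correction. Under overexpression FGFR1 was the 1 gene called (0.18, SE 0.04, adjusted p = 0.0136), and with ZIC2 against knockout it was FGFR3, higher by 0.63 (SE 0.07, adjusted p = 1.86e-06). Over all tested genes 0.317% were higher and 0.447% lower in the first of these, and 4.99% and 3.35% in the second.

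Immediate early genes also respond to handling of cells, and a list of heat shock and stress genes was read beside them. Of 15 tested, 3 were higher (HSPB1, GADD45A and HSPA5) and 3 lower (HSPD1, HSPH1 and HSP90AA1) in knockout, with a median of 0.02, beside 20% and 18.5% of all tested genes, and 3 and 1 after the GC and length correction. Under overexpression 0 were called, beside 0.317% higher and 0.447% lower of all tested genes. After the correction, however, HSPB1 was higher (0.17, adjusted p = 0.0244) and GADD45A lower (-0.40, adjusted p = 0.00939). With ZIC2 against knockout 2 were higher, DDIT3 (0.49, SE 0.13, adjusted p = 0.0184) and HMOX1 (0.20, SE 0.06, adjusted p = 0.0376), and HSPA1B, whose counts are uncertain since it has a near-identical copy, was lower (-0.54, SE 0.15, adjusted p = 0.0312). Over all tested genes 4.99% were higher and 3.35% lower with ZIC2 against knockout. With ZIC2 against wild type 6 were higher and 5 lower (7 and 2 after the correction) at a median of 0.06, and knockout against overexpression gave 5 and 1 (4 and 1) at a median of 0.05. Over all tested genes the shares were 20.3% and 17.3% in the first of these and 19% and 17.5% in the second. GADD45A, a growth arrest gene induced by DNA damage, was higher by 0.55 (SE 0.09, adjusted p = 4.44e-05) in the first and by 0.87 (SE 0.09, adjusted p = 8.5e-08) in the second. The part of handling in the levels of EGR1 and JUN was not tested. Where genes of these lists are named beyond the 3 with the smallest adjusted p in a comparison, they were chosen after their values were seen.

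**Figure D5:**
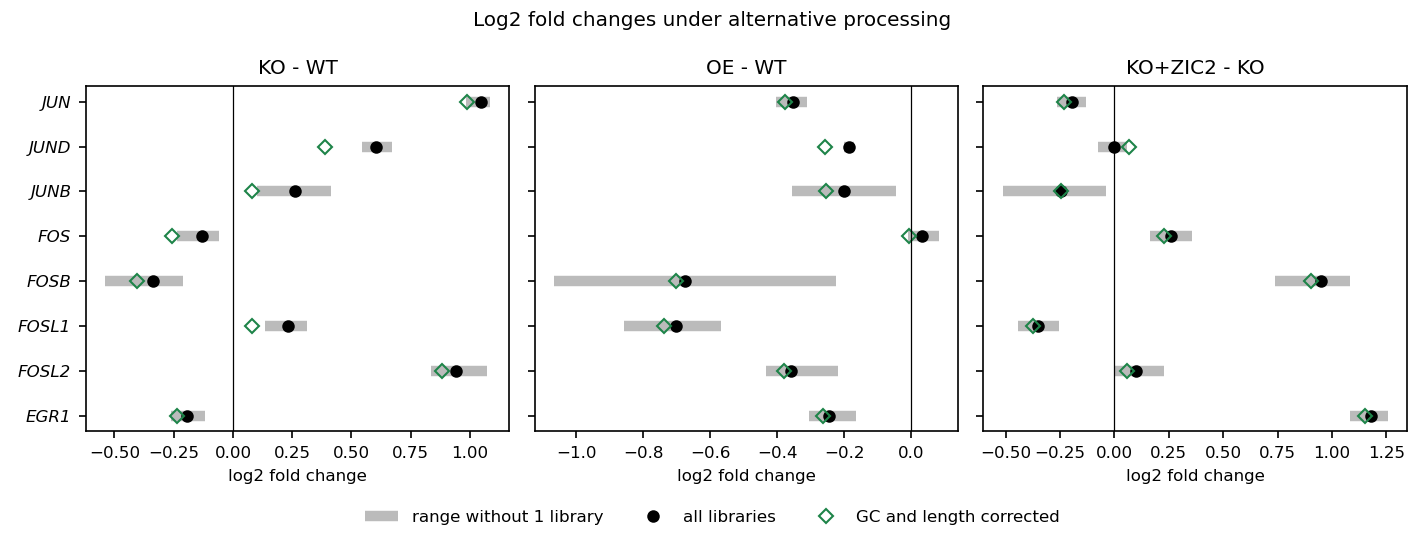
Log2 fold changes of the 8 tested members in 3 comparisons with all libraries (black), after a GC content and length correction (green diamonds), and the range when 1 library of the groups compared was left out (grey bars). JUND in knockout is the called value that the correction moves most, from 0.60 to 0.39, and JUN, FOSL2 and EGR1 stay near their values.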

How the data were processed

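Poly(A) RNA of 12 H1 libraries was sequenced, and the authors deposited whole-number counts per gene with no normalization. The submitters' processing notes name STAR, featureCounts, DESeq2 and hg19 and give no version or setting, and per the file headers the counted files held uniquely aligned reads, which lowers genes with near-identical copies. The library kit named in the labels' protocols does not mark strand. Gene length in bases was deposited by the authors beside the counts. It is used for CPM per kilobase and in the correction for GC content and length.

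Groups were taken from the labels. Counts were scaled by TMM factors, filtered with filterByExpr of edgeR 4.0.16 (R 4.3.3), and tested by the quasi-likelihood test in 1 fit of all 12 libraries on the group alone (8 residual degrees of freedom, common biological coefficient of variation 0.04). Benjamini-Hochberg adjustment ran over the 15437 genes tested, and genes with an adjusted p under 0.05 are named as called. The fit was also run on counts simulated from its own dispersions. Its assumptions hold there by construction, so that run cannot check them and nothing is read from it here. FOSB and EGR3 also have ratios of pooled counts with exact binomial 95% intervals. Within groups, pairs of libraries differed by a chi-square of 1.37 to 9.82 per gene, and each counts as its own library. GC content was the median over GENCODE transcripts matched by symbol for 94.5% of tested genes. Alternatives were RLE size factors, DESeq2 1.42.0, no filter, a filter of at least 1 CPM in 3 libraries, only the groups compared, a replicate block, a correction for GC content and length with and without that block, and leaving out each library.

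The members and lists were chosen with earlier results of these data known, and no p-value is adjusted over a list alone. The rule for named genes took all members, up to 3 genes of each list with the smallest adjusted p in each comparison, and the 3 genes with the highest correlation with FOS, FOSL1, JUN and EGR1. Other genes of lists are named where a count was 5 or fewer or as stated. The rule also took 1 gene whose values are left out here.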

Additional observations from a re-analysis of the deposited data

How the results depend on the processing

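Of 14 called member results over the 5 comparisons, 12 kept their direction and call under every alternative run, and the exceptions were JUN and FOSL1 under ZNF263 overexpression. Of 553 alternative values of the 40 member results, 522 kept direction and call, 21 were newly called, 10 were no longer called and 0 were reversed. Members called lower in knockout against wild type numbered 0, but 1 with the GC content and length correction (FOS) and 2 with that correction and the replicate block (FOS and EGR1). Members called lower under overexpression numbered 2, but 3 with only these groups in the fit, 3 with the GC content and length correction, 3 with that and the replicate block, and 0 to 1 when 1 library was left out. In knockout with ZIC2 against knockout, members called lower numbered 0, but 1 with RLE size factors, 1 with no filter, 2 with the GC content and length correction, 1 with that and the replicate block, and 0 to 1 when 1 library was left out. Members called higher there numbered 1 to 2 when 1 library was left out. In knockout against overexpression, members called lower numbered 0, but 1 with the GC content and length correction, 1 with that and the replicate block, and 0 to 1 when 1 library was left out.

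Over all genes, overexpression against wild type gave 49 higher and 69 lower, but 99 and 121 with no filter, 210 and 221 with only these groups in the fit, and 115 and 128 with the GC content and length correction. Knockout with ZIC2 against knockout gave 771 higher and 517 lower, but 928 lower with the correction and 289 lower with only these groups. Against wild type, lower genes with ZIC2 numbered 2678, and 1785 with the correction. The cause was not tested.

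With the replicate block alone, members called higher in knockout against wild type numbered 3 and the log2 fold change of JUN was 1.05, and the block changed no member call. Deviations of libraries with the same number correlated at -0.11 to 0.112, and 4 of 12 libraries correlated best with a library of their own number, so the numbers were not treated as pairs. Depth limits what can be said of FOSB and EGR3.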
